A study of Mus musculus with 28 samples.

Results

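Fibronectin, the urokinase system and the matricellular genes were followed here through acetylation of histone H3 at lysine 27 (H3K27ac), a mark of active promoters and enhancers, in NMuMG cells during TGF-β-induced EMT with and without inhibition of ERK signalling. The 9 genes were Fn1, Sparc, Tnc, Thbs1, Postn, Lox, Loxl2, Plau and Plaur, out of 21494 mouse genes that code for protein. Their H3K27ac was taken from every peak whose summit lay within 100 kb of a start site of one of these genes and nearer to it than to the start site of any other gene. Of the 893719 peaks in the 15 peak lists, 1069 met this rule, between 53 and 92 a library. Overlapping peaks of different libraries were merged into 89050 regions of the genome (build mm9), of which 105 belonged to the 9 genes, and a region was called promoter where its summit lay within 1000 bp of a start site and distal otherwise. Of the 105 regions, 73 (7 promoter and 66 distal) had a peak in 3 or more libraries and were tested together with all 60506 such regions of the genome. The other 32 were called in 1 or 2 libraries and were not tested. Being nearest to a start site does not show which gene a distal region acts on.

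The NMuMG/E9 line is a subclone of untransformed mouse mammary gland epithelial cells, so all libraries come from a single cultured line. The 5 conditions had 3 libraries each. Cells at 0h were untreated, cells at 4h and 24h received 2 ng/ml TGF-β with the solvent DMSO, and cells labelled ERKi 4h and ERKi 24h received the same TGF-β for the same time after 30 min with 25 µM UO126, an inhibitor of MEK, the kinase that activates ERK. No H3K27ac library came from cells given UO126 without TGF-β, so a difference between ERKi 24h and 0h holds both treatments. Nor did any come from cells kept for 4h or 24h without TGF-β. A difference from 0h therefore also holds the time in culture and, as 0h was untreated, the solvent. The labels do not say how the replicates were separated, and p-values measure the spread between these libraries.

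As background, fibronectin is a large adhesive glycoprotein of the extracellular matrix that cells bind through integrins, and its synthesis is a standard mark of EMT. Matricellular proteins such as osteonectin (Sparc), tenascin C (Tnc), thrombospondin 1 (Thbs1) and periostin (Postn) are secreted into the matrix and modulate adhesion and growth factor activity rather than building fibres. Lysyl oxidases (Lox, Loxl2) cross-link collagen and elastin. Urokinase (Plau) bound to its receptor (Plaur) activates plasminogen at the cell surface, and plasmin degrades matrix proteins.

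The level of a region is given as relative pileup, the number of overlapping fragments at the highest summit of the region divided by the library's median over the 26934 regions called in all 15 libraries, so that 1 is the level of a typical shared region. A relative pileup of 1 stood for 63 to 110 fragments, depending on the library. Replicate 2 had the fewest in each condition, with 66 at 0h, 67 at 4h, 70 at 24h, 65 at ERKi 4h and 63 at ERKi 24h. The part of this depth in missing peaks of replicate 2 was not tested. The libraries held 50445 to 69180 peaks. For the tests, a library without a peak in a region was set to a floor of 0.190 and a called peak below the floor was raised to it, while the values printed are those before this step, and differences are on the log2 scale of relative pileup. In such a mixture of cells, fewer cells carrying the mark and less mark per cell cannot be told apart. Promoter peaks were found in every library at 3 of 8 epithelial marker genes (Cdh1, Krt8 and Krt18), and at Cldn4 in 11 libraries, but in none at Epcam, Cldn3, Esrp1 and Grhl2. Their summed level was 6.0 to 6.43 at 0h, 6.67 to 7.74 at 4h, 6.8 to 8.69 at 24h, 6.06 to 7.06 at ERKi 4h and 7.68 to 8.74 at ERKi 24h. Of 6 mesenchymal or fibroblast marker genes, Col1a1 had a promoter peak in every library, Pdgfra in 3, Pdgfrb in 1, and Twist1, Col3a1 and Dcn in none. The summed level of this list was 0.6 to 0.924 at 0h, 0.734 to 1.1 at 4h, 1.17 to 1.57 at 24h, 0.763 to 1.2 at ERKi 4h and 0.695 to 1.19 at ERKi 24h, so both lists were higher at 24h than at 0h with no overlap, and their part in the results was not tested. None of the 4 leukocyte or 3 endothelial marker genes had a promoter peak in any library.

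At 24h of TGF-β, 15 of the 73 regions were higher than at 0h (20.5%, beside 14.4% of all regions) and 6 were lower (8.22%, beside 7.5% of all regions), by limma with Benjamini-Hochberg adjusted p under 0.05. The median log2 difference was 0.03 over the 73 regions and 0 over all regions. With the replicate number as a block, 22 were higher and 11 lower, beside 19.2% and 13.7% of all regions. At 4h, 1 region was higher than at 0h (1.37%, beside 2.21% of all regions) and none was lower (0.876% of all regions), while 6 higher and 3 lower had an unadjusted p under 0.05. With the block, 5 were higher and 2 lower at 4h, beside 5.68% and 2.92%. The counts at 24h depended on single libraries. Higher regions numbered 8 or 9 without 0h replicate 1, 0h replicate 2, 24h replicate 1 or 24h replicate 3 and 23 without 24h replicate 2, and lower regions numbered 2 or 3 without 0h replicate 3, 24h replicate 1 or 24h replicate 2. At 4h, no region was higher without 0h replicate 1, 0h replicate 2 or 4h replicate 3, and 2 were without 0h replicate 3. Taken as the percentile of fold enrichment over local background in place of pileup, 10 of the 39 differences called in these comparisons kept their call and direction, 19 were no longer called, and 10 changed direction, at the Fn1 start and at Tnc and Thbs1.

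With ERK inhibition at 4h, none of the 73 regions passed the test against 4h in either direction, in limma with or without the block, and 1 lower and 0 higher had an unadjusted p under 0.05 (with the block, 6 and 2). Over the genome, 0.0545% of regions were higher and 0.185% lower in that comparison. With ERK inhibition at 24h, 2 regions were higher than at 24h (2.74%, beside 4.25%) and 1 was lower (1.37%, beside 5.95%). With the block these counts were 4 and 5, beside 9.51% and 10.8% of all regions. The ERKi effects at 24h and 4h differed at 0 of the 73 regions by limma (0.631% of all regions had a higher and 1.36% a lower effect at 24h), with 2 higher and 2 lower at an unadjusted p under 0.05, and at 2 with the block, both at Sparc and higher, beside 1.53% higher and 2.11% lower of all regions. Against 0h, the ERKi 24h libraries were higher at 9 regions (12.3%, beside 12.5%) and lower at 5 (6.85%, beside 7.89%), and with the block at 15 and 13 (beside 18% and 14.5%). Against 24h, 1 region was higher without 24h replicate 2, while none was lower without 24h replicate 3, 2 were without 0h replicate 3, 4h replicate 1 or ERKi 24h replicate 3, and 5 without 24h replicate 2. Against 0h, 5 were higher without ERKi 24h replicate 1, and 3 were lower without 0h replicate 3, ERKi 24h replicate 1 or ERKi 24h replicate 2 and 9 without 0h replicate 1. The comparisons of 4h, 24h and ERKi 24h with 0h share the same 3 untreated libraries.

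**Figure D1:**
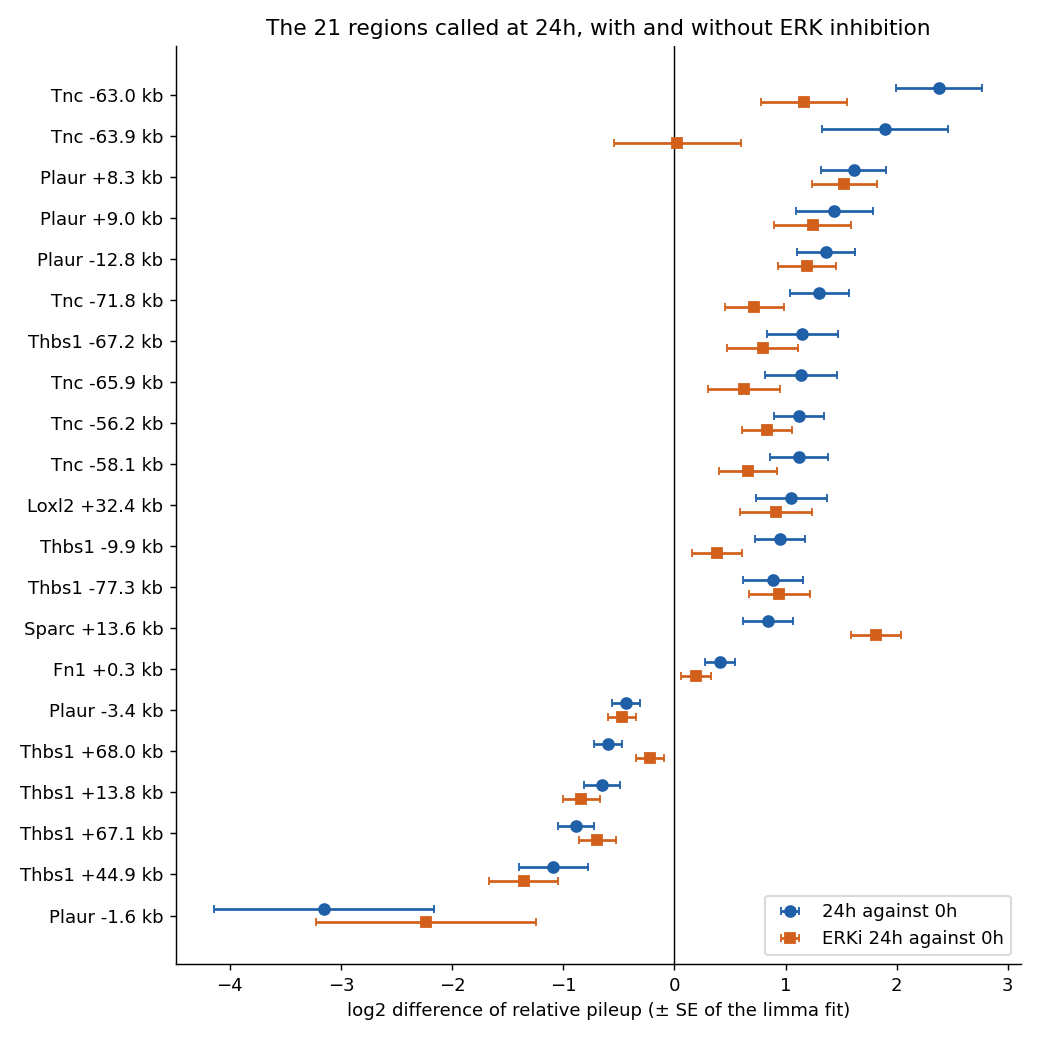
The 21 regions that passed the test at 24h against 0h, with the log2 difference of relative pileup on the x axis (bars are the standard error of the limma fit, 3 libraries a condition); circles are 24h against 0h and squares ERKi 24h against 0h, which share the 0h libraries. The Sparc region 13.6 kb downstream is the member whose square lies far to the right of its circle (1.81 and 0.84), and the Tnc region 63.9 kb upstream has its square near 0 (0.03 and 1.89).

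Fibronectin (Fn1, chr1:71632094-71699774, minus strand) had H3K27ac at its start in every library and a small set of distal regions. The start region (chr1:71698453-71700639, summit 0.3 kb inside the gene, in a UTR) had relative pileups of 1.02, 1.09 and 0.827 at 0h and of 1.38, 1.21 and 1.29 at 24h. All 24h libraries were above all 0h libraries, a log2 difference of 0.41 ± 0.13 (SE; adjusted p = 0.0478). The ERKi 24h libraries, at 1.29, 1.08 and 0.990, overlapped with both groups (log2 -0.22 ± 0.13 against 24h, adjusted p = 0.388). This call was close to the threshold. It was kept without 0h replicate 2, 4h replicate 3, 24h replicate 2, ERKi 24h replicate 1 or ERKi 24h replicate 3, and lost without any other single library (log2 0.29 to 0.48 over the 15 fits). The same stretch holds the start of Apol7d, which GENCODE lists as coding for protein and RefSeq as a non-coding gene and which lies on the other strand, so the acetylation there belongs to a start shared by both. By percentile of fold enrichment the difference at 24h turned to -7.78 points, without passing the test (adjusted p = 0.0791).

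The leading distal region of Fn1 lay 38.8 kb upstream, between genes, and was the region lowered by ERK inhibition. Its relative pileups were 0.355, 0.576 and 0.693 at 0h, 0.426, 0.448 and 0.598 at 4h, and 0.702, 0.657 and 0.867 at 24h. In ERKi 24h libraries they were 0.266, 0.333 and 0.390, below every 24h library. Against 24h this was a log2 difference of -1.18 ± 0.27 (adjusted p = 0.0163), a 2.26-fold lower level, and the call was lost without 24h replicate 3 (-1.06) or ERKi 24h replicate 1 (-1.04). The rise from 0h to 24h (0.50 ± 0.27, adjusted p = 0.234) passed the test only with the block (adjusted p = 0.0396), as did the lower level of ERKi 24h against 0h (-0.68, 0.105 and 0.0102 with the block). At 71.0 kb upstream a weaker region was higher at ERKi 24h than at 0h. It had 0.136 and 0.258 in 2 of the 0h libraries with no peak in the third, 0.287, 0.257 and 0.241 at 24h, and 0.275, 0.444 and 0.371 in ERKi 24h libraries, which exceeded 0h by 0.76 ± 0.18 (adjusted p = 0.00982). These regions count as Fn1 regions only because Apol7d was left out of the start sites, a choice made after seeing the data: with GENCODE start sites as annotated, the regions at the start, at 38.8 kb and at 71.0 kb are not assigned to Fn1.

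The 300 bases around the summit of the Fn1 region 38.8 kb upstream (chr1:71738440-71738739, mm9, plus strand) are shown because this is the region that ERK inhibition lowered, with capitals at the letters that match a searched motif.
Fn1 38.8 kb upstream: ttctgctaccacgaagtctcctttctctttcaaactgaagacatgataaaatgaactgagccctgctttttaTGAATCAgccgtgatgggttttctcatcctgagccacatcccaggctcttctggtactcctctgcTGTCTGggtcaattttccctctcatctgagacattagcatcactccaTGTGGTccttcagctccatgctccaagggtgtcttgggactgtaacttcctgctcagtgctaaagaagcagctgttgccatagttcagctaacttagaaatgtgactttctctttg
The first capitals match the AP-1 motif (TGANTCA on either strand). The next, TGTCTG, match the SMAD motif on the other strand. The last match the RUNX motif (TGTGGT). AP-1 matches lay in the same window of 5 of the 73 regions (6.85%) and of 8.85% of all 60506 regions. Over distal regions alone, the share was 10.1%.

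Osteonectin (Sparc, chr11:55208002-55233582, minus strand) was acetylated at its promoter, in an intron 1.8 kb inside the gene, and at 8.5 kb upstream in every library. The 8.5 kb upstream region stayed between 1.43 and 1.96 in all 15 libraries, and the region at 1.8 kb between 1.48 and 2.27, and neither passed a test in any comparison. The promoter region (summit 0.4 kb inside the gene) had 1.70, 1.38 and 1.35 at 0h, 1.47, 1.2 and 1.19 at 24h, and 2.09, 1.78 and 1.68 in ERKi 24h libraries. Every ERKi 24h library was above every 24h library, by a log2 difference of 0.52 ± 0.12 (adjusted p = 0.0174). The call was lost without 24h replicate 2 (0.46), 24h replicate 3 (0.47) or ERKi 24h replicate 1 (0.42), and the sign turned (-0.0031) where peaks within 1000 bp were merged, which joins the promoter region with the one at 1.8 kb. With the block, the promoter was also lower at 24h than at 0h (-0.20, adjusted p = 0.303 and 0.0129 with the block) and higher in ERKi 24h than in 0h (0.33, 0.0817 and 0.000812), and the ERKi effect was larger at 24h than at 4h (difference 0.38, 0.479 and 0.0183).

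An intronic Sparc region 13.6 kb downstream of the start appeared during the treatment and was highest with ERK inhibition. No peak was called at 0h. At 4h it was called in 2 libraries (0.209 and 0.253), at 24h in all (0.330, 0.314 and 0.386), at ERKi 4h in 2 (0.155 and 0.275), and at ERKi 24h in all (0.560, 0.556 and 0.962). The groups did not overlap between 0h, 24h and ERKi 24h. The log2 differences on the floored scale were 0.84 ± 0.22 for 24h against 0h (adjusted p = 0.0189), 1.81 ± 0.22 for ERKi 24h against 0h (adjusted p = 0.000232) and 0.97 ± 0.22 for ERKi 24h against 24h (adjusted p = 0.0169). Because 0h lay at the floor, the values against 0h depend on it. The first call was lost without any of the 0h libraries (0.84 to 0.85), without 24h replicate 1 (0.51) or without 24h replicate 3 (0.76). The other calls were kept in all 15 fits that left out a library, but that against 24h was lost by percentile of fold enrichment (10.96 points, adjusted p = 0.821), by percentile of pileup or of -log10 p, and with each library's own floor. With the block, the ERKi effect here was also larger at 24h than at 4h (0.97, adjusted p = 0.224 and 0.0398 with the block). The sequence is given as that of the Sparc region opposite in direction to the Fn1 region, on the plus strand at chr11:55219699-55219998 (mm9), and holds none of the searched motifs.
Sparc 13.6 kb downstream: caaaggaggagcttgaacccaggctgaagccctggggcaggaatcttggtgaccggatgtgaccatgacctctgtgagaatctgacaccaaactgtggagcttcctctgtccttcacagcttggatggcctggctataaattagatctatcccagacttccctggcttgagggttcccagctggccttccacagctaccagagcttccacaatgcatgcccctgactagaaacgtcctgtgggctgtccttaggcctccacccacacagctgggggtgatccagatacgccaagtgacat

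**Figure D2:**
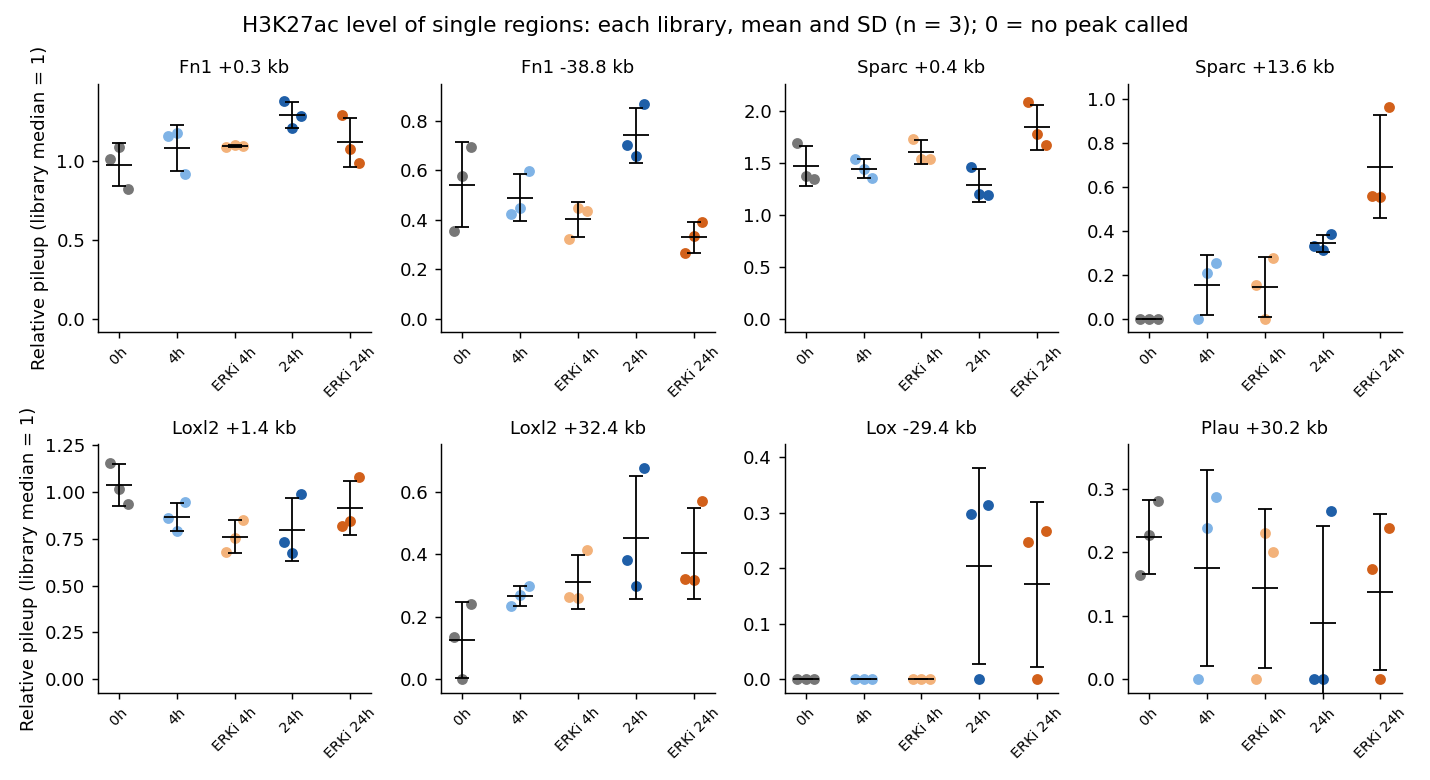
Relative pileup (y axis, library median = 1) of 8 single regions in the 5 conditions, with 1 point a library and the mean and SD of 3 libraries; a point at 0 is a library with no peak called. ERKi 24h lies below every 24h point at Fn1 38.8 kb upstream and above every 24h point at both Sparc regions, while the Lox and Plau regions hold weak or missing peaks.

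Tenascin C (Tnc, chr4:63620819-63681760, minus strand) had the most regions, 32, of which 22 were tested, and no region with its summit within 1000 bp of a start site. The region with the highest mean level lay 3.9 kb upstream, where all 15 libraries had a peak between 0.929 and 2.03. It was 1.61 ± 0.368 at 0h (SD, n = 3), 1.51 ± 0.281 at 4h, 1.4 ± 0.463 at 24h, 1.28 ± 0.192 at ERKi 4h and 1.53 ± 0.320 at ERKi 24h, and did not pass the test in any comparison (log2 -0.24 ± 0.26 for 24h against 0h, adjusted p = 0.598).

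The change at Tnc lay in a cluster of regions between genes, 56.2 to 79.0 kb upstream of the start, where 6 regions were higher at 24h than at 0h. At 65.9 kb the relative pileups were 0.745, 0.545 and 1.01 at 0h, 1.23, 1.03 and 1.55 at 4h, and 1.95, 1.09 and 2.10 at 24h. The 24h libraries were all above the 0h libraries, by 1.14 ± 0.32 (adjusted p = 0.0264), and so were the 4h libraries (0.75 ± 0.32, adjusted p = 0.338, and 0.00374 with the block). At 56.2 kb they were 0.655, 0.803 and 0.8 at 0h and 1.74, 1.37 and 1.82 at 24h, a difference of 1.12 ± 0.22 (adjusted p = 0.00374). At 71.8 kb they were 0.382, 0.318 and 0.6 at 0h and 1.33, 0.714 and 1.16 at 24h (1.3 ± 0.27, adjusted p = 0.00438), and at 58.1 kb the difference was 1.12 ± 0.26 (adjusted p = 0.00915). At 63.0 kb no library had a peak at 0h, at 4h or at ERKi 4h, and all 24h libraries did (1.14, 0.8 and 1.07), a floored difference of 2.38 ± 0.39 (adjusted p = 0.00106). The region at 63.9 kb was called in 1 library at 0h (0.560) and in all at 24h (1.01, 0.857 and 1.2; 1.89 ± 0.57, adjusted p = 0.0343). The calls at 65.9 and 63.9 kb were lost without 0h replicate 1, 0h replicate 2, 24h replicate 1 or 24h replicate 3 (0.90 to 1.14 and 1.62 to 1.90), and those at the other 4 regions were kept in every such fit.

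Each of these regions was judged by the peak caller against a local background, and that background rose in the cluster as well. At 65.9 kb it was 18.2, 8.81 and 15.8 fragments at 0h and 53.4, 23.2 and 48.0 fragments at 24h, so that the deposited fold enrichment over it was 4.32, 3.77 and 4.59 at 0h and 3.39, 3.18 and 3.57 at 24h. Ranked by fold enrichment within each library, 5 of the 6 regions were lower at 24h, by 0.15 to 19.7 percentile points, without passing the test (adjusted p of 0.118 or above). The region at 63.0 kb was higher by 0.98 points and was no longer called (adjusted p = 0.811). The sources used here do not say whether this background came from an input library or from the library itself. The missing peaks at 63.0 and 63.9 kb at 0h lay within 2000 bp of a called peak, where a peak can go uncalled beside a stronger one, and with such libraries treated as missing neither region could be tested.

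In the ERKi 24h libraries, the mean levels of all 6 regions lay between those of 0h and 24h. The ERKi 24h libraries had 1.2, 0.841 and 1.5 at 65.9 kb, 0.633, 0.635 and 0.810 at 71.8 kb, 1.22, 0.778 and 1.05 at 58.1 kb, and 1.62, 1.03 and 1.41 at 56.2 kb. At 63.0 kb they had 0.807 and 0.508 with no peak in the third, and at 63.9 kb a peak in 1 library (0.590). None of these regions passed the test against 24h (log2 differences of -0.52, -0.59, -0.46, -0.29, -1.21 and -1.87, adjusted p of 0.389, 0.210, 0.341, 0.503, 0.0697 and 0.0599 in the same order). With the block, 4 regions of the cluster were lower than at 24h, at 65.9 kb (adjusted p = 0.0121), 63.0 kb (0.0494), 63.9 kb (0.0128) and 78.0 kb (-0.51, adjusted p = 0.326 and 0.00760 with the block). Against 0h, the region at 56.2 kb stayed higher in ERKi 24h libraries (0.83 ± 0.22, adjusted p = 0.0212), a call lost without 0h replicate 1 (0.72), ERKi 24h replicate 1 (0.69) or ERKi 24h replicate 3 (0.79). With the block, so were those at 71.8 kb (0.72, adjusted p = 0.0804 and 0.0172), 65.9 kb (0.63, 0.215 and 0.00269) and 63.0 kb (1.17, 0.0533 and 0.0406). At 78.0 kb the rise at 24h (0.82 ± 0.28) was called only with the block (adjusted p = 0.0620 and 0.000321).

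Past the gene, 61.6 kb downstream, a weak region was highest in ERKi 24h libraries. It had 0.450, 0.317 and 0.419 there and 0.223, 0.214 and 0.361 at 24h, but a peak in 1 library each at 0h (0.118) and at 4h (0.138), and exceeded 0h by 1.04 ± 0.17 at ERKi 24h (adjusted p = 0.00151). It was higher at ERKi 24h than at 24h with the block alone (0.60, 0.0506 and 0.0304). Its peaks at 0h and 4h lay under the floor of 0.190. Every 0h and 4h library therefore stood at the floor in these tests, without spread, and the p-value against 0h does not measure the spread there. An intronic region at 5.9 kb was called in no library at 0h, 4h and ERKi 4h, in 2 at 24h (0.543 and 0.699) and in all at ERKi 24h (0.624, 0.317 and 0.714; 1.45 ± 0.41 against 0h, adjusted p = 0.0254). That call was lost without any of the 0h libraries or without ERKi 24h replicate 1 or 3 (1.22 to 1.46). In that test all libraries at 0h, 4h and ERKi 4h stood at the floor, without spread. Only peaks at 24h and ERKi 24h brought the region into it. With the block, 24h was higher than 0h at 5.9 kb (1.13, 0.0692 and 0.0348) and 6.5 kb (0.84, 0.0664 and 0.0389) inside the gene, and lower at 34.2 kb (-0.43, 0.0660 and 0.0370), where ERKi 24h was lower as well (-0.47, 0.0514 and 0.0272). The sequence of the Tnc region 63.0 kb upstream (chr4:63744622-63744921, mm9, plus strand) is shown because it had the lowest p of the 73 regions at 24h against 0h. That p came with all libraries at 0h, 4h and ERKi 4h set to the floor, without spread. Only peaks at 24h and ERKi 24h brought this region into the test.
Tnc 63.0 kb upstream: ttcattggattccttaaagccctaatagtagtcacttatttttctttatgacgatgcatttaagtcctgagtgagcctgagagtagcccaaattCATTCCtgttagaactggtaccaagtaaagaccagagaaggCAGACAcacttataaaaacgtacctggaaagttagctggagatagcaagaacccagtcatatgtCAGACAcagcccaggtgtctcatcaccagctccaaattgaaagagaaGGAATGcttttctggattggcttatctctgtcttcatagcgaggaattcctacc
Its capitals are CATTCC and GGAATG, matches on either strand to the TEAD motif GGAATG, and CAGACA, a SMAD motif, at 2 places. The TEAD letters occurred in 11 of the 73 windows (15.1%) and in 15.8% of all windows, and the SMAD letters in 23 (31.5%) and 26.9%. Over the windows of distal regions alone, the shares were 16.9% and 30.0%.

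**Figure D3:**
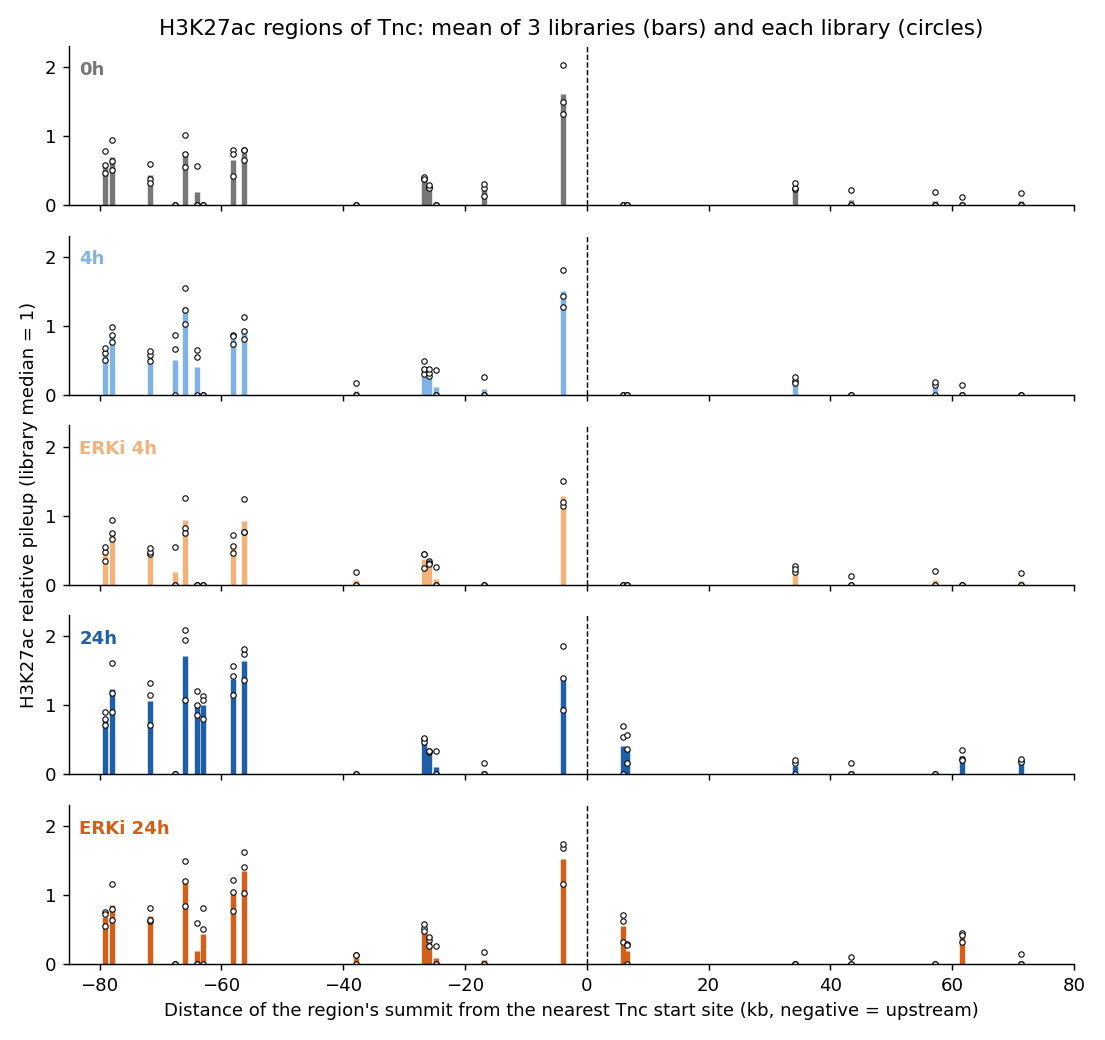
Tested H3K27ac regions of Tnc by the distance of their summit from the start site (x axis, kb), with relative pileup on the y axis; bars are means of 3 libraries and circles the libraries, 1 panel a condition. The cluster 56.2 to 79.0 kb upstream is tallest at 24h and intermediate at ERKi 24h, while the region 3.9 kb upstream has a similar height in all panels. The region 67.6 kb upstream, inside the cluster, goes another way, with peaks only at 4h (0.660 and 0.874) and ERKi 4h (0.55).

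Thrombospondin 1 (Thbs1, chr2:117937612-117952869, plus strand) had a higher pileup at 3 upstream regions and a lower pileup at 4 downstream regions at 24h than at 0h. By fold enrichment over local background, part of the downstream regions changed direction. The strongest region lay 1.8 kb upstream, ending just short of the start site, and held 1.66, 2.03 and 1.75 at 0h and 2.66, 1.60 and 2.65 at 24h, groups that overlapped (0.31 ± 0.20, adjusted p = 0.326). A separate promoter region with its summit 0.3 kb inside the gene was called in 4 libraries. Every library had at least 1 Thbs1 peak with its summit within 1000 bp of the start site, and most of these peaks merged into the region at 1.8 kb, which counts as distal by its summit.

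Upstream, 3 regions were higher at 24h. At 67.2 kb the relative pileups were 0.509, 0.5 and 0.827 at 0h and 1.37, 0.914 and 1.83 at 24h, with no overlap (1.15 ± 0.32, adjusted p = 0.0243). At 4h they were already 0.926, 1.07 and 1.41 (0.91 ± 0.32, adjusted p = 0.203, and 0.00438 with the block), and at ERKi 24h 0.954, 0.778 and 1.48 (0.79 ± 0.32 against 0h, 0.108, and 0.00250 with the block). A region at 69.0 kb was higher at 4h with the block alone (0.55, 0.292 and 0.0271). At 77.3 kb no 0h library had a peak and all 24h libraries did (0.415, 0.243 and 0.434; 0.89 ± 0.27, adjusted p = 0.0365), and at 9.9 kb 1 of the 0h libraries had a peak of 0.160 beside 0.404, 0.243 and 0.506 at 24h (0.95 ± 0.22, adjusted p = 0.0102). The first call was lost without 0h replicate 1 or 2 or 24h replicate 1 or 3 (0.91 to 1.12). That at 77.3 kb was lost without any 0h library, 4h replicate 1, ERKi 4h replicate 2, or 24h replicate 1 or 3 (0.74 to 0.89). In the tests at 77.3 and 9.9 kb, every library at 0h, 4h and ERKi 4h stood at the floor, so these p-values do not measure the spread there. Without 24h and ERKi 24h, neither region would have had peaks enough to be tested.

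Downstream, 4 regions were lower at 24h. At 68.0 kb the values were 1.57, 1.52 and 1.77 at 0h, 1.29, 1.28 and 1.46 at 4h, and 1.02, 0.971 and 1.23 at 24h, each step below the one before without overlap (24h against 0h -0.60 ± 0.13, adjusted p = 0.00576; 4h against 0h -0.27 ± 0.13, 0.412, and 0.0255 with the block). At 67.1 kb they were 1.07, 0.909 and 1.04 at 0h and 0.479, 0.714 and 0.470 at 24h (-0.89 ± 0.16, adjusted p = 0.00244). At 44.9 kb they were 0.555, 0.485 and 0.760 at 0h and 0.234, 0.243 and 0.373 at 24h (-1.09 ± 0.31, adjusted p = 0.0271). At 13.8 kb, in a UTR of Thbs1, they were 1.28, 1.02 and 1.49 at 0h and 0.734, 0.786 and 0.867 at 24h (-0.65 ± 0.16, adjusted p = 0.0143). The call at 44.9 kb was lost without 0h replicate 1 or 3 or 24h replicate 1 or 2 (-0.91 to -1.14), and that at 13.8 kb without 0h replicate 3 (-0.52) or 24h replicate 1 (-0.60).

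With ERK inhibition at 24h, 3 of the downstream regions stayed below 0h, at 13.8 kb (0.633, 0.714 and 0.752; -0.84 ± 0.16, adjusted p = 0.00379), 44.9 kb (0.174, 0.270 and 0.238; -1.35 ± 0.31, adjusted p = 0.00908) and 67.1 kb (0.633, 0.698 and 0.543; -0.69 ± 0.16, adjusted p = 0.0109). The region at 68.0 kb had 1.24, 1.38 and 1.56, above all 24h libraries (0.38 ± 0.13 against 24h, adjusted p = 0.0869, and 0.00253 with the block), and was below 0h with the block alone (-0.22, 0.276 and 0.0215). The upstream region at 77.3 kb was higher in ERKi 24h than in 0h libraries (0.495, 0.222 and 0.448; 0.94 ± 0.27, adjusted p = 0.0287), a call lost without any 0h library or without ERKi 24h replicate 1 or 3 (0.73 to 0.95).

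The local background fell along with the pileup at the downstream regions. At 68.0 kb it was 33.8, 20.3 and 29.2 fragments at 0h and 11.2, 10.7 and 12.9 at 24h, and the deposited fold enrichment was 5.0, 4.73 and 4.44 at 0h and 7.98, 5.92 and 7.40 at 24h. Ranked by fold enrichment, this region was higher at 24h, by 27.6 percentile points (adjusted p = 0.00129), so its direction depends on whether the level is taken with or without the local background. The regions at 67.1 kb (17.1 points, adjusted p = 0.418) and 13.8 kb (2.05 points, 0.864) also turned, without passing the test, as did that at 67.1 kb for ERKi 24h against 0h (14.6 points, 0.464). The sequence at 67.1 kb (chr2:118004604-118004903, mm9, plus strand) is shown as the Thbs1 region with the lowest p at 24h; it holds none of the searched motifs.
Thbs1 67.1 kb downstream: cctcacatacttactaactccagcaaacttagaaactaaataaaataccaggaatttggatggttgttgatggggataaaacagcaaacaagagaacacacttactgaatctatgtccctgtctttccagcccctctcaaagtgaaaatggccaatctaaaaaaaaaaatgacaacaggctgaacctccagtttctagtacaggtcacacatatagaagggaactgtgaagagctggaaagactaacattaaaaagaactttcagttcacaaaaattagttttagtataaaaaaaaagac

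**Figure D4:**
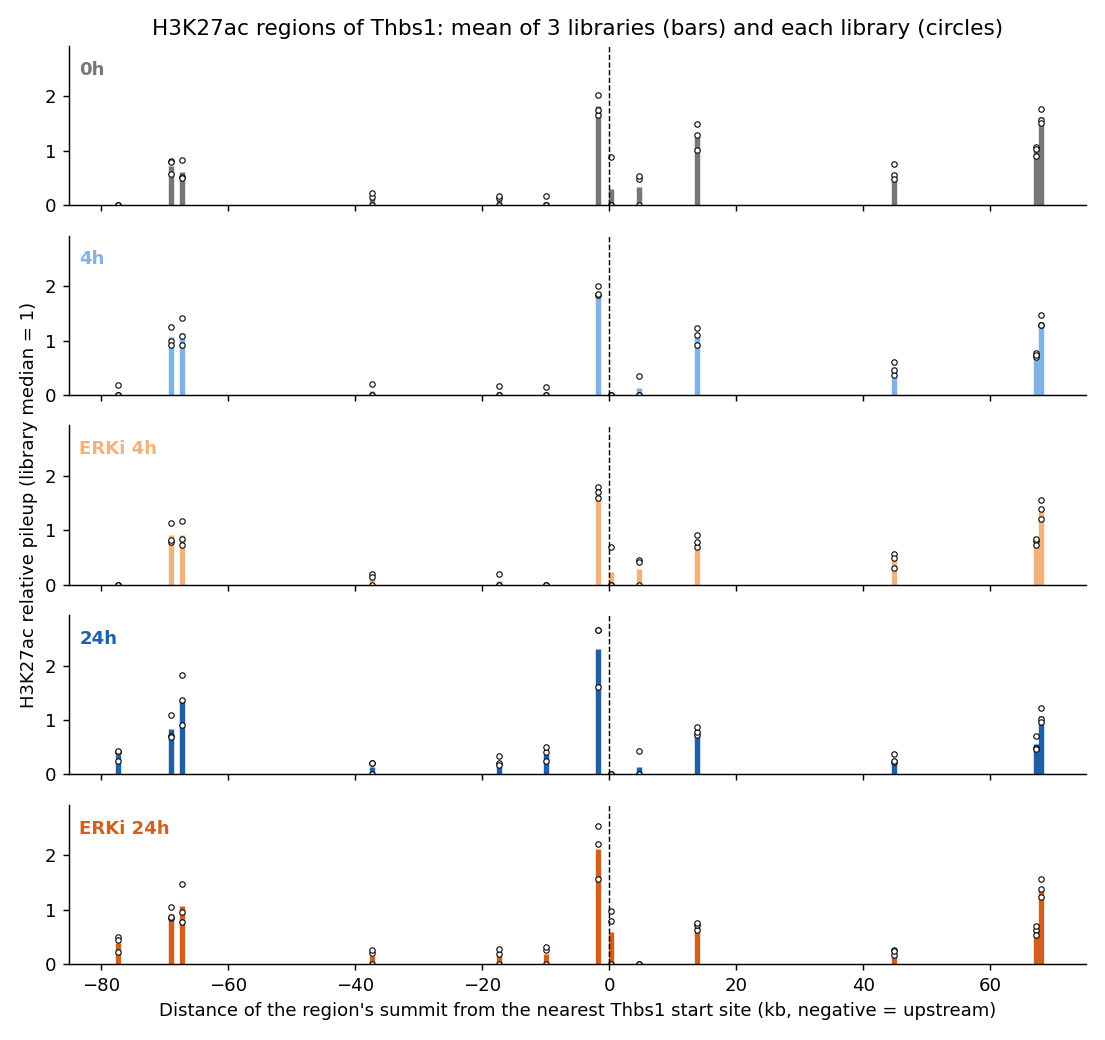
Tested H3K27ac regions of Thbs1 by the distance of their summit from the start site (x axis, kb), with relative pileup on the y axis; bars are means of 3 libraries and circles the libraries, 1 panel a condition. The bars at 67.1 and 68.0 kb downstream are tallest at 0h, and those at 67.2 kb upstream are lowest at 0h.

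Periostin (Postn, chr3:54165031-54194961) had no H3K27ac peak within 100 kb of any of its 5 annotated start sites in any of the 15 libraries. The nearest summit lay 103 kb away. No region of Postn could be tested, in any condition.

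The lysyl oxidase genes differed in how much acetylation was assigned to them. Lox (chr18:52675723-52689521, minus strand) had no promoter peak in any library, and its 6 distal regions were weak and called only in 24h replicates 1 and 3 and ERKi 24h replicates 1 and 3. The strongest, 29.4 kb upstream, had 0.298 and 0.313 at 24h and 0.248 and 0.267 at ERKi 24h, and no peak in replicate 2 of either condition or in any library at 0h, 4h and ERKi 4h. It did not pass the test at 24h (0.45 ± 0.16, adjusted p = 0.0663), but did with the block (adjusted p = 0.0336). In both tests all libraries at 0h, 4h and ERKi 4h stood at the floor, without spread.

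Loxl2 (chr14:70008978-70095640, plus strand) had 11 tested regions. Its leading region, 1.4 kb inside the gene, had 1.15, 1.02 and 0.933 at 0h and 0.734, 0.671 and 0.988 at 24h, groups that overlapped (-0.39 ± 0.17, adjusted p = 0.121). The region at the start itself was called in 2 libraries at 0h (0.736 and 0.893), 1 at 4h (0.632), all at ERKi 4h (0.464, 0.492 and 0.675) and none at 24h or ERKi 24h, and passed the test only with the block (24h against 0h -1.39 ± 0.55, adjusted p = 0.0970 and 0.0493; ERKi 24h against 0h 0.101 and 0.0498). It lies within 2000 bp of the leading region, beside which it can go uncalled. An intronic region 32.4 kb inside the gene rose from 0.136, no peak and 0.240 at 0h to 0.383, 0.3 and 0.675 at 24h (1.05 ± 0.32, adjusted p = 0.0366), and had 0.321, 0.317 and 0.571 at ERKi 24h (0.91 ± 0.32 against 0h, adjusted p = 0.0666, and 0.00356 with the block). The 24h call was lost without any 0h library or without 24h replicate 1 or 3 (0.72 to 1.17). With the block, the region at 5.3 kb was also higher at 24h (1.04, adjusted p = 0.284 and 0.0474), and those at 2.3 kb inside and 4.1 kb upstream were lower at ERKi 24h than at 0h (-1.27, 0.0597 and 0.0281; -0.69, 0.245 and 0.0455).

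Fewer and weaker regions were assigned to the urokinase gene than to the gene of its receptor. Over all libraries, 231 peaks lay within 100 kb of the Plau start and 455 within 100 kb of the Plaur start. Most of them were nearer to the start of another gene. Plau (chr14:21655884-21662610, plus strand) had no promoter peak in any library and 7 weak distal regions, 4 of them tested. The leading one, 30.2 kb downstream, was called in 10 libraries at 0.164 to 0.287, and no Plau region passed a test in any comparison, with or without the block.

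Plaur (chr7:25247519-25260892, plus strand) had the single region with the highest mean level of the 73. Its start lies in a run of strong regions from 3.4 kb upstream to 0.4 kb inside the gene. The region inside the gene had 1.68 to 2.40 in all 15 libraries, with no difference past the test in any comparison. At 3.4 kb upstream the values fell from 2.74, 2.58 and 3.19 at 0h to 2.26, 1.87 and 2.14 at 24h (-0.44 ± 0.13, adjusted p = 0.0281) and 2.05, 1.70 and 2.44 at ERKi 24h (-0.47 ± 0.13, adjusted p = 0.0206), without overlap with 0h. The promoter region 0.8 kb upstream had 2.10, 1.95 and 2.61 at 0h and 1.41, 1.48 and 1.78 at ERKi 24h (-0.51 ± 0.13, adjusted p = 0.0158), with 1.74, 1.70 and 1.88 at 24h (-0.31 ± 0.13, adjusted p = 0.110, and 0.0103 with the block) and a call at 4h with the block alone (-0.28, 0.383 and 0.0471). These 3 calls were lost without 0h replicate 3 (-0.35, -0.38 and -0.39). At 3.4 kb the 24h call was lost also without 0h replicate 1 or 24h replicate 2 or 3 (-0.35 to -0.46), and both ERKi 24h calls also without ERKi 24h replicate 1 or 2 (-0.33 to -0.47). The small regions 1.6 and 2.2 kb upstream were called in all 0h libraries (1.51, 1.58 and 2.03 at 1.6 kb). At 1.6 kb no 24h library had a peak (-3.15 ± 0.99, adjusted p = 0.0407), but each had a called peak within 2000 bp, and with such libraries treated as missing the region could not be tested. This call was also lost without any of the 0h or 24h libraries (-3.02 to -3.24). With the block, the region at 2.2 kb was lower at 24h (-2.28, 0.0566 and 0.0258) and ERKi 24h (-2.38, 0.0502 and 0.0209), and that at 1.6 kb at ERKi 24h (-2.24, 0.141 and 0.0470).

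The regions of Plaur that rose were a region 12.8 kb upstream and a pair in its introns. At 12.8 kb upstream the relative pileups were 0.655, 0.652 and 0.867 at 0h, 1.47, 1.69 and 2.14 at 4h, and 1.95, 1.49 and 2.18 at 24h. Every treated library was above every 0h library, by 1.28 ± 0.26 at 4h (2.43-fold, adjusted p = 0.0211) and by 1.36 ± 0.26 at 24h (2.57-fold, adjusted p = 0.00289). This was the only region of the 9 genes called at 4h without the block, and that call was lost without 0h replicate 1 (1.2), 0h replicate 2 (1.2), 4h replicate 2 (1.3) or 4h replicate 3 (1.13), while the 24h call was kept in all 15 fits. At 8.3 kb inside the gene the values were 0.355, no peak and 0.507 at 0h, 0.713, 0.627 and 0.839 at 4h, and 1.00, 0.886 and 1.11 at 24h (1.61 ± 0.29 at 24h, adjusted p = 0.00204; 1.15 ± 0.29 at 4h, 0.0603, and 0.00478 with the block). At 9.0 kb they were 0.309 with no peak in 2 libraries at 0h and 0.489, 0.557 and 0.819 at 24h (1.44 ± 0.35, adjusted p = 0.0112), and at 7.3 kb the rise was called with the block alone (1.36, 0.163 and 0.0151). By percentile of fold enrichment the region 12.8 kb upstream was still higher at 4h and 24h, by 11.3 and 7.26 points, without passing the test (adjusted p = 0.325 and 0.280).

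No difference between ERKi and TGF-β alone at the same time passed the test at these regions. At 12.8 kb upstream the ERKi 4h libraries had 1.49, 1.05 and 1.82 and the ERKi 24h libraries 1.69, 1.19 and 2.18, overlapping with 4h and 24h (-0.30 ± 0.26 and -0.18 ± 0.26, adjusted p = 1.00 and 0.805). At 8.3 kb inside the gene they were 0.798, 0.708 and 0.988, and 0.890, 0.841 and 1.1 (-0.09 ± 0.29 against 24h, adjusted p = 0.987). Against 0h, all 3 regions were higher at ERKi 24h, by 1.19 ± 0.26 (adjusted p = 0.00703), 1.53 ± 0.29 (0.00321) and 1.24 ± 0.35 (0.0249), of which the last was lost without 0h replicate 2 or 3 or ERKi 24h replicate 1 or 3 (1.12 to 1.25). The sequence of the region 12.8 kb upstream (chr7:25234557-25234856, mm9, plus strand) is shown because it was the region called at both 4h and 24h.
Plaur 12.8 kb upstream: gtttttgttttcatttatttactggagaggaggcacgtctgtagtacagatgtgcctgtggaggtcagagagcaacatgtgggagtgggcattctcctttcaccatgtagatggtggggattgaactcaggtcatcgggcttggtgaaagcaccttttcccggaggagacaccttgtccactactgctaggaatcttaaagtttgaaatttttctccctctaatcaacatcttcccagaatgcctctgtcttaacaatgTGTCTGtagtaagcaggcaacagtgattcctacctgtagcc
Its capitals, TGTCTG, are the reverse complement of the SMAD motif CAGACA.

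**Figure D5:**
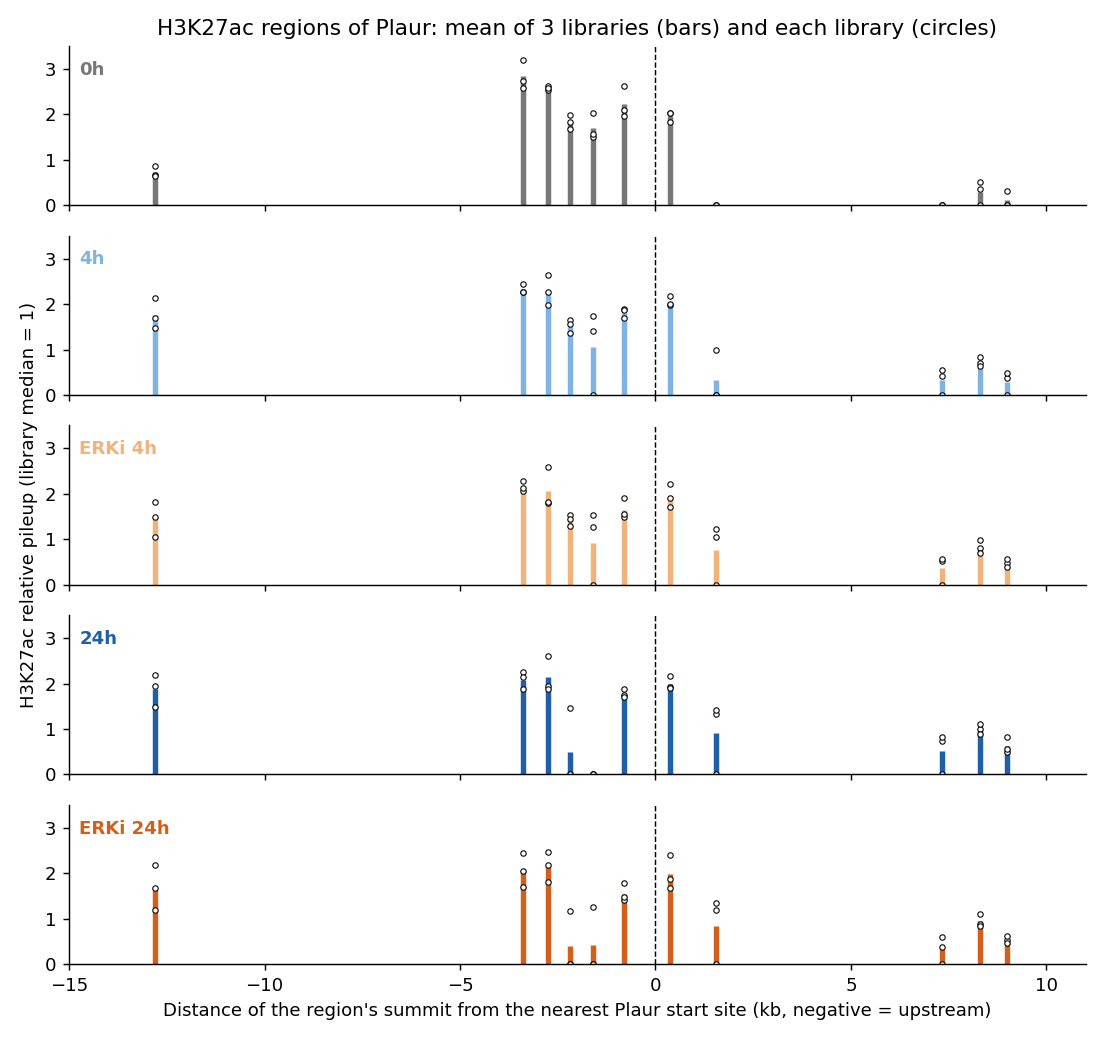
Tested H3K27ac regions of Plaur by the distance of their summit from the start site (x axis, kb), with relative pileup on the y axis; bars are means of 3 libraries and circles the libraries, 1 panel a condition. The region 12.8 kb upstream is low at 0h and more than 1 in every treated library, while the region 0.4 kb inside the gene has a similar height in all panels.

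Among the 15 regions higher at 24h, none held the AP-1 motif TGANTCA, 3 held TEAD (GGAATG), 2 RUNX (TGTGGT), none ETS (CCGGAA), 4 SMAD (CAGACA) and none the SMAD palindrome GTCTAGAC, within the 300 bases around the summit and on either strand. Among the 6 lower regions, 2 held CAGACA and none another of these motifs. Over all 60506 windows these letters occurred in 8.85%, 15.8%, 19.2%, 6.77%, 26.9% and 0.304%, in the order given, and over the 73 windows in 5, 11, 8, 2, 23 and 0. Most member regions were distal, and over distal regions alone the shares were 10.1%, 16.9%, 21.6%, 4.02%, 30.0% and 0.354%. The TEAD and ETS letters can overlap in GGAA, and both SMAD motifs contain AGAC.

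Summed over the distal regions of a gene, the signal differed at 24h for Tnc alone among the 8 genes with a distal region. The summed relative pileup of Tnc was 7.10 ± 1.79 at 0h (SD, n = 3), 8.84 ± 1.83 at 4h, 13.7 ± 2.92 at 24h, 6.87 ± 1.48 at ERKi 4h and 10.3 ± 2.23 at ERKi 24h. The rise at 24h was 0.94 ± 0.24 on the log2 scale (1.91-fold, adjusted p = 0.00721), where 23.8% of the 9848 genes with a distal region were higher and 11.4% lower. It rested on the cluster: with regions within 50 kb only, the difference was 0.23 (adjusted p = 0.489), and by covered length in place of height it was 0.16 (0.151). A region without a peak adds nothing to the sum, also at 63.0 and 63.9 kb upstream, where the missing 0h peaks lay beside called ones. The sum was not taken by fold enrichment, by which most of the cluster's called regions were lower at 24h, without passing the test. At 4h, 4.79% of genes were higher and 0.579% lower without a member among them. With the block, where 13.7% and 4.94% were called at 4h, 32.4% and 19.1% at 24h, 16% and 13.4% at ERKi 24h against 24h, 32.4% and 16.5% at ERKi 24h against 0h, and 1.19% and 2.36% (no member) at ERKi 4h against 4h, Tnc was higher at 4h (0.32, adjusted p = 0.0321) and at ERKi 24h against 0h (0.53, 0.000546), and lower at ERKi 24h than at 24h (-0.41, 0.00623).

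Fn1 distal signal was 0.770 ± 0.254 at 0h, 1.24 ± 0.168 at 24h and 0.841 ± 0.201 at ERKi 24h, and passed the test only with the block, as higher at 24h (0.61, adjusted p = 0.0676 and 0.00245) and lower with ERK inhibition (-0.48, 0.232 and 0.0177). The distal signal of Plaur was 10.1 ± 0.947 at 0h and 9.66 ± 1.53 at 24h, and that of Thbs1 8.26 ± 1.15 and 8.48 ± 1.93, sums that hold both the gains and the losses (log2 differences of -0.07 and 0.02, adjusted p = 0.838 and 0.959). Lox passed with the block alone, at 24h (1.43, adjusted p = 0.0227) and ERKi 24h (1.4, 0.0270) against 0h. The Lox signal was 0 in every library at 0h, 4h and ERKi 4h, so these p-values do not measure the spread there. Only peaks at 24h and ERKi 24h brought its regions into the sum. By the number of distal peaks, Fn1 (2, 3 and 3 at 0h; 5, 4 and 9 at 24h) and Plaur (6, 5 and 5; 7, 8 and 7) had more at 24h with no overlap between the groups, as did 14.4% of the 11962 genes with a distal peak, and no member had fewer (4.7% of genes). At 4h no member differed from 0h without overlap (4.74% of genes had more and 1.16% fewer). At ERKi 24h, Thbs1 had fewer than at 24h (13, 11 and 13 beside 16, 15 and 17), as did 3.33% of those genes. At ERKi 4h, Plau had fewer than at 4h (0, 1 and 1 beside 2, 2 and 4; 1.1% of genes). Against 0h, Fn1, Sparc and Plaur had more at ERKi 24h, as did 13.4% of genes.

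The course of the distal signal over the 15 libraries was compared with that of 6087 genes that had a distal region in every library, as a description across libraries that share their conditions and depth. Tnc was most like Adam12, a metalloprotease gene (Pearson r = 0.973), and Nrp2, a neuropilin (0.968). Plaur was close to Mlph (0.931), and Loxl2 most like Socs3 (0.960) and Phgdh (0.934). Thbs1 was most like Ly6f (0.937) and Loxl2 (0.931). Fn1 was most like Kcnip1 (0.936) and Myoz2 (0.917), Sparc like Akap13 (0.879) and Slc6a18 (0.855), Plau like Micalcl (0.916) and Adamtsl4 (0.881), and Lox, at 0 in most libraries, like Mrpl36 (0.963) and R3hcc1 (0.939).

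Other genes of the matrix and of the same families gave a frame for these results. Of a list of 45, among them thrombospondins, tenascins, fibulins, small proteoglycans and latent TGF-β binding proteins, 30 had a distal region. At 24h, 12 were higher and 1 lower than at 0h, with a median log2 difference of 0.44 beside 0.10 over all genes (with the block, 16 and 4). Over all genes, 23.8% were higher and 11.4% lower (32.4% and 19.1% with the block). The 3 with the lowest p were Ecm1, a secreted matrix protein (1.72 ± 0.17, adjusted p = 8.79e-06), Fbln2, a fibulin (2.49 ± 0.25, 1.04e-05), and Ltbp2, a latent TGF-β binding protein (3.33 ± 0.38, 2.38e-05). At 4h, 2 were higher, Fbln2 (1.28 ± 0.25, adjusted p = 0.00816) and Sparcl1, a relative of Sparc (1.28 ± 0.33, 0.0356), beside 4.79% of all genes (with the block, 6 higher and 1 lower). With ERK inhibition at 24h, 3 were lower than at 24h, Ecm1 (-1.27 ± 0.17, adjusted p = 0.000567), Spp1, the gene of osteopontin (-0.80 ± 0.17, 0.00745), and Ltbp1 (-0.98 ± 0.22, 0.0103), and 1 was higher (with the block, 7 and 5), beside 6.01% and 6.2% of all genes. The median over the list in that comparison was -0.30, beside 0.02 over all genes. At ERKi 4h none differed from 4h (1 lower with the block), beside 0.386% of genes lower and 0.0711% higher. Against 0h, 9 were higher at ERKi 24h and none lower (12 and 4 with the block), beside 23.2% and 9.64% of all genes.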

How the data were processed

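H3K27ac was measured by ChIP-seq in 15 libraries, 3 in each of 5 conditions taken from the labels. The authors aligned the reads with Bowtie to mm9 and called peaks with MACS2, one deposited list a library; the control used for calling is not given in the sources used here. Each deposited peak has a fold enrichment over local background (a ratio), a -log10 p-value and a -log10 q-value. Read totals were not in these lists, so depth is given as fragments at shared regions.

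The pileup at each summit was recovered as the whole number that the fold enrichment and p-value of a Poisson test share, within 0.005 on the -log10 scale for 893694 of 893719 peaks. It was divided by the library's median over 26934 shared regions. A missing peak, or a peak below it, was set to a floor of 0.190, equal to 12 to 21.0 fragments. The log2 values of 60506 regions were fitted by limma 3.58.1 in R 4.3.3 with all 15 libraries and a term for each condition, and p-values were adjusted by Benjamini-Hochberg over all regions. Distal signal was summed over a gene's distal regions, the floor was added, and 9848 genes were tested in the same way. The scripts were tested on simulated data.

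Start sites were those of GENCODE vM1 genes that code for protein, without 886 that RefSeq gives another biotype, a choice made after Apol7d was seen to share the start region of Fn1. Same-numbered libraries of different conditions deviated together (30 of 30 correlations over 0.1, from 0.192 to 0.603, mean 0.391). Values with the replicate number as a block are therefore given where they change a call. The mean for other numbers, -0.194, is no separate evidence, because deviations from a condition's mean cancel out.

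All 9 genes are named. Regions were named as the promoter and the highest distal region of each gene and the 3 with the lowest p in each comparison, and the other regions past the test or past it with the block only were added after their values were seen, so that every call is accounted for. Likeness used the 2 genes with the highest correlation of log2 distal signal among 6087 genes with a signal in every library. A result of this rule is not reported here. The members, gene lists and motifs were chosen with earlier results of these data known. In the file headers, the library number of ERKi 4h replicate 1 is out of the order of the others. RNA-seq and input samples of the series were not analysed here. Sequences were read from the mm9 genome.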

Additional observations from a re-analysis of the deposited data

How the results depend on the processing

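Recomputed under the other settings, the 39 regional differences called gave 450 values that kept the call and direction, 114 that were no longer called and 13 that changed direction. With start sites of all transcripts, with GENCODE start sites as annotated and within 50 kb, only the gene of a region can change. The 39, 36 and 24 values under these settings were therefore kept by construction and are no evidence of stability. Differences whose region was absent or could not be tested under a setting were not counted. Those counted numbered 22 among regions called in all 15 libraries, 24 within 50 kb and 36 with libraries near another peak treated as missing. By percentile of fold enrichment at 24h against 0h, the direction changed for Fn1 at its start (-7.78 points), for Tnc at 71.8 kb (-9.63), 65.9 kb (-19.7), 63.9 kb (-0.15), 58.1 kb (-13.7) and 56.2 kb (-7.03) upstream, and for Thbs1 at 13.8 kb (2.05), 67.1 kb (17.1; 14.6 for ERKi 24h against 0h) and 68.0 kb (27.6) downstream. By percentile of -log10 p, Thbs1 at 68.0 kb changed (1.43 points), with a region counted only where peaks of the library cover a share of 0.5 of it, Thbs1 at 67.1 kb for ERKi 24h against 0h (0.030), and with peaks merged within 1000 bp, the Sparc promoter for ERKi 24h against 24h (-0.0031). The local background moved at Tnc and Thbs1, and other causes were not tested.

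The counts of higher regions at 4h (1 in the report) were 5 with the replicate block, 2 among regions called in 8 or more libraries, and 0 by percentile of fold enrichment, scaling by all peaks or coverage of 0.5, and lower regions (0) were 2 with the block. At 24h, higher regions (15) were 8 by fold enrichment, 9 by -log10 p, 5 by coverage of 0.5, and 7 with -log10 q of at least 10, within 50 kb or among regions called in all 15 libraries. Lower regions at 24h (6) were 11 with the block, 3 by fold enrichment, -log10 p or pileup percentile, 1 by -log10 q and 0 by coverage. For ERKi 4h against 4h, 1 higher region was called with libraries near another peak treated as missing. For ERKi 24h against 24h, higher regions (2) were 4 with the block, 0 by fold enrichment, and 1 by -log10 p, pileup percentile, scaling by all peaks, each library's own floor or regions called in all 15 libraries, and lower regions (1) were 5 with the block and 0 with GENCODE start sites as annotated. For ERKi 24h against 0h, higher regions (9) were 15 with the block, 3 by coverage, 5 by -log10 q or within 50 kb and 2 among regions called in all 15 libraries. Lower regions there (5) were 13 with the block, 8 with missing libraries, own floors or 8 or more libraries, 3 by scaling, -log10 p or merging, 2 by fold enrichment or coverage and 1 by -log10 q. The ERKi effects at 24h and 4h differed at 2 regions with the block and at 1 by coverage or with missing libraries.

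Genes higher in distal signal at 24h (1) were 3 with the block, 2 where promoters reached only 100 bp into the gene, and 0 by covered length, -log10 q or within 50 kb. With the block 1 was higher at 4h, 2 were lower at ERKi 24h against 24h (13.4% of all genes) and 2 higher at ERKi 24h against 0h (32.4% of all genes). Within 50 kb 1 was lower at ERKi 24h against 24h, and by covered length 2 were higher at ERKi 24h against 0h. Genes with more distal peaks at 24h (2) were 0 by -log10 q and 1 with promoters within 2500 bp, those at ERKi 24h against 0h (3) were 1 by -log10 q, and those with fewer peaks, Plau at ERKi 4h and Thbs1 at ERKi 24h, were 0 by -log10 q. Beyond the values given here and in the report, the replicate block changed no call of a member.

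Leaving out a library in turn gave 0 to 2 higher regions at 4h, 8 to 23 higher and 2 to 7 lower at 24h, 1 to 3 higher and 0 to 5 lower at ERKi 24h against 24h, 5 to 11 higher and 3 to 9 lower at ERKi 24h against 0h, and 0 to 1 for the difference of the ERKi effects. Distal signal was higher for 1 to 2 genes at 24h (2 without 0h replicate 3, 24h replicate 2 or ERKi 24h replicate 2) and for 0 to 2 at ERKi 24h against 0h. Genes with more distal peaks numbered 0 to 1 at 4h, 2 to 4 at 24h, 0 to 1 at ERKi 4h and 0 to 1 at ERKi 24h against 24h, and genes with fewer 0 to 1 at 24h and 1 to 2 at ERKi 24h against 24h. The settings with regions called in all 15 libraries, missing libraries and GENCODE start sites as annotated were chosen after seeing the data. With 3 libraries a condition and no read totals, weak regions near the floor of 12 to 21.0 fragments are the least certain.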
